A study of Mus musculus with 8 samples.

Results

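The genes of MHC class II presentation were followed in B cells about to enter the germinal center: the alpha and beta chain genes H2-Aa, H2-Ab1 and H2-Eb1, the invariant chain gene Cd74, the transactivator gene Ciita, the H2-DM genes H2-DMa, H2-DMb1 and H2-DMb2, and the H2-DO genes H2-Oa and H2-Ob. They are 10 of the 24259 gene symbols in the deposited count table, and all 10 passed the filter on low counts. The genes were chosen by symbol with their levels in these libraries already known from earlier results, so the differences between groups given here for them describe these libraries and support nothing by themselves.

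The libraries came from NP+IgDlowB220+ B cells of lymph nodes (labelled C57BL/6), sorted on day 3 after immunization with NP-OVA, the hapten NP coupled to ovalbumin. Per the study's methods, the recipients of both groups were CD45.1 Sap-/- mice, whose own T cells cannot sustain a germinal center, and they were injected under the skin with NP-OVA and LPS in alum 1 day after receiving ovalbumin-specific OT-II T cells. The OT-II donors were CD4-Cre x Bcl6 fl/+ in HET, with 1 floxed copy of Bcl6, and CD4-Cre without a floxed allele in WT, so both groups share the transgene, which the Cd4 promoter drives. The deletion concerned the helper T cells, so the sequenced B cells offer no targeted gene with which to check the labels. Each group has 4 libraries of 200 cells, sorted from 1 pool of recipients per group, so the spread is that of sorting and library preparation, p-values measure only that spread, and a difference between pools cannot be told apart from one between groups. No age was given for the recipients.

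MHC class II molecules carry peptides of engulfed proteins to the cell surface, where CD4 T cells read them, and a B cell that has bound antigen must present it in this way to be helped. The alpha and beta chains assemble with the invariant chain, which blocks the groove and leads the complex to endosomes. There the invariant chain is cut down to a fragment, H2-DM exchanges that fragment for a peptide, and H2-DO, made mainly in B cells, restrains H2-DM. CIITA does not bind DNA itself. It is recruited by factors that sit on a shared promoter element, the X and Y boxes, and switches most of these genes on together.

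Of the 10 genes, 8 lie on chromosome 17 of GRCm38 within 224.3 kb (34092340 to 34316674, GENCODE M21), in the order H2-Oa, H2-DMa, H2-DMb2, H2-DMb1, H2-Ob, H2-Ab1, H2-Aa and H2-Eb1. H2-Aa (34282744 to 34287823) is read from the minus strand and the other 7 from the plus strand. Ciita lies on chromosome 16 (10480059 to 10528418, plus strand). All are annotated as protein-coding.

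RefSeq promoter windows of GRCm38.p6, from 250 bases before to 50 bases after the start, were held for 7 of the 10 genes (not H2-Ab1, Cd74 or Ciita). They were searched for an X box core spelled GNAAC, followed after 20 to 30 bases by a Y box core spelled TGATTGG, a spacing set after the windows had been read. Of the 7 genes, 5 held this pair on the strand of the gene. The stretches are shown because CIITA is known to act through an element made of X and Y boxes, whose cores they match in full or in part. Cores are in capitals, and each stretch is written 5′ to 3′ on the strand of the gene.
H2-Oa (chr17:34092293-34092345, plus): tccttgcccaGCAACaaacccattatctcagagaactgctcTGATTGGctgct
H2-DMb1 (chr17:34153087-34153139, plus): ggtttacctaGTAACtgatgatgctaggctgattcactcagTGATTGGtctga
H2-DMb2 (chr17:34145116-34145168, plus, Y box core only): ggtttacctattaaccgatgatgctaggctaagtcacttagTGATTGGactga
H2-Ob (chr17:34238808-34238857, plus): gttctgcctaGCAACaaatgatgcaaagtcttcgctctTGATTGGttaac
H2-Aa (chr17:34287862-34287914, minus): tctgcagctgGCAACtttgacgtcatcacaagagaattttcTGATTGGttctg
H2-Eb1 (chr17:34305766-34305817, plus): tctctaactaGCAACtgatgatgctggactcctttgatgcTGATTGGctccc

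The cores were 26 bases apart in H2-Oa, H2-DMb1 and H2-Aa, 23 in H2-Ob and 25 in H2-Eb1, and the Y box core ended 38 to 56 bases before the RefSeq start in these 5 genes. In H2-DMb2 the Y box core ended 85 bases before the start and no X box core of this spelling preceded it at that spacing. The windows of H2-DMa held neither the Y box core nor the pair. Of 32851 RefSeq windows of this length, 0.323% held the pair on either strand, 7.82% held TGATTGG on either strand and 4.01% held it on the strand of the gene. These matches describe the sequence only, and no binding was measured in these cells.

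Total counts were 6652386 to 12559189 per library, and 3 counts corresponded to 0.241 to 0.455 CPM (counts scaled to library size, with TMM factors). The 6 B cell markers (Cd79a, Cd79b, Ms4a1, Cd22, Pax5 and Ptprc) were high in every library, with a sum of 8889 to 11121 CPM. Counts of Ptprc do not separate its B220 form, used in the sort, from the CD45 of other leukocytes. Markers of other cells were present at much lower levels. The 12 T cell genes summed to 382 to 679 CPM in HET and 217 to 554 in WT, the 8 dendritic cell genes to 46.1 to 168 and 9.69 to 129, the 11 macrophage, monocyte or neutrophil genes to 12.4 to 26.9 and 20.4 to 423, and the 8 antibody-secreting cell genes to 242 to 2072 and 205 to 467. A single library set the top of the range in WT replicate 2 (423, mostly Lyz2) and in HET replicate 1 (2072, mostly Jchain). No marker was at 0 in all 8 libraries, and Cd4 had 0 to 7 counts. Dendritic cells and macrophages also make class II RNA, and their part in the results was not tested.

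The class II genes were among the most abundant RNAs of these cells. Per unit of gene length, Cd74 had the highest level, with a mean of 4981 TPM over the 8 libraries (4039 to 5980, rank 24 of 24232 genes). H2-Ab1 followed at 3987 TPM (3219 to 4641) and H2-Aa at 3749 TPM (2807 to 4465). Each range overlapped the next over the 8 libraries, but within every library Cd74 lay above H2-Ab1 and H2-Ab1 above H2-Aa. H2-Eb1 stood below them without overlap at 1492 TPM (1154 to 1777). C57BL/6 mice carry a defective alpha chain gene for this beta chain, and H2-Ea had 0 to 10 counts.

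The genes that edit the peptide cargo formed the next tier. H2-Ob had a mean of 634 TPM (483 to 757), H2-DMb2 606 (471 to 699) and H2-Oa 446 (335 to 559), each overlapping the next, and H2-DMa had 203 TPM (156 to 264) and H2-DMb1 169 (99.7 to 246), which overlapped each other but not H2-Oa. Ciita was lowest at 36.4 TPM (27.5 to 49.8, rank 2182), below H2-DMb1 without overlap. The order therefore separated into 5 blocks whose ranges over the libraries did not overlap. Within every library H2-DMb2 also lay above H2-Oa and H2-DMa above H2-DMb1, whereas the order of H2-Ob and H2-DMb2 varied.

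**Figure D1:**
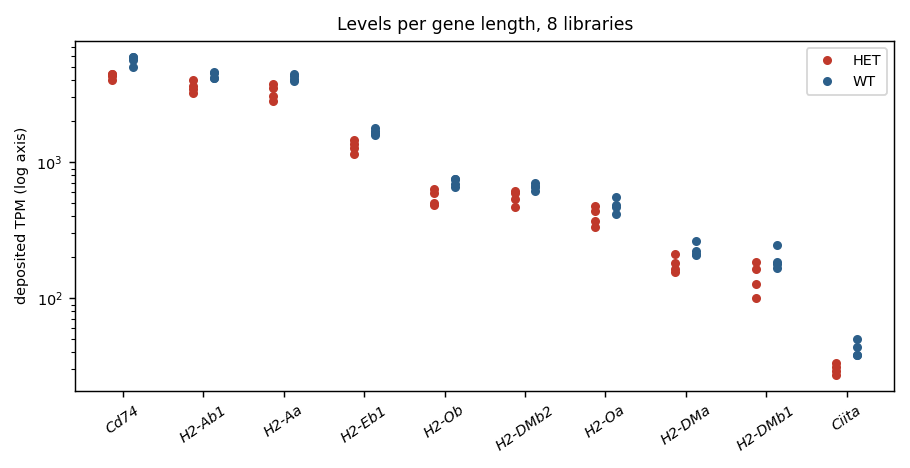
Deposited TPM on a log axis for each of the 10 genes, ordered by mean, with 1 point per library (HET red, WT blue, 4 libraries each). Means run from 4981 TPM for Cd74 to 36.4 TPM for Ciita, and the lowest point of each gene is a HET library.

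HET was next set against WT, a comparison made to learn whether B cells helped by T cells with 1 copy of Bcl6 received less CD40L signal. All 10 genes had a lower mean in HET, with ratios of HET to WT between 0.739 (Ciita) and 0.866 (H2-DMb2), and for 6 of them every HET library lay below every WT library. None of the 10 was called by edgeR's quasi-likelihood test after Benjamini-Hochberg adjustment over all genes (adjusted p from 0.0770 for Cd74 to 0.740 for H2-Oa), where 0.0235% of the 12744 genes tested were called. By DESeq2, the tool the study used, 5 of the 10 were called (Cd74, Ciita, H2-Eb1, H2-Aa and H2-Ob), against 0.656% of the genes to which it gave an adjusted p. The same share over all genes was 50.1% for a lower mean in HET, 2.62% for HET libraries all below WT libraries, and 3.88% for an unadjusted p under 0.05 in the lower direction, which 9 of the 10 genes reached. The median log2 fold change of the 10 genes was -0.31, and that of all genes tested was -0.0014. Among the 564 other genes at least as abundant as H2-DMb1 (231 CPM), 49.5% were lower in HET and 6.21% were lower without overlap. Bulk RNA cannot tell fewer cells that carry these transcripts from less of them per cell.

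The 10 genes together took 2.96% ± 0.171 of all counts in HET against 3.67% ± 0.186 in WT (SD, n = 4 each). The HET libraries held 2.77% to 3.18% and the WT libraries 3.43% to 3.85%, without overlap, and the 95% Wilson interval of each library's share, which covers counting error only, spanned no more than 0.0268 percentage points. Summed TPM values were 14375 ± 1208 in HET against 18232 ± 1033 in WT (SD, n = 4 each).

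**Figure D2:**
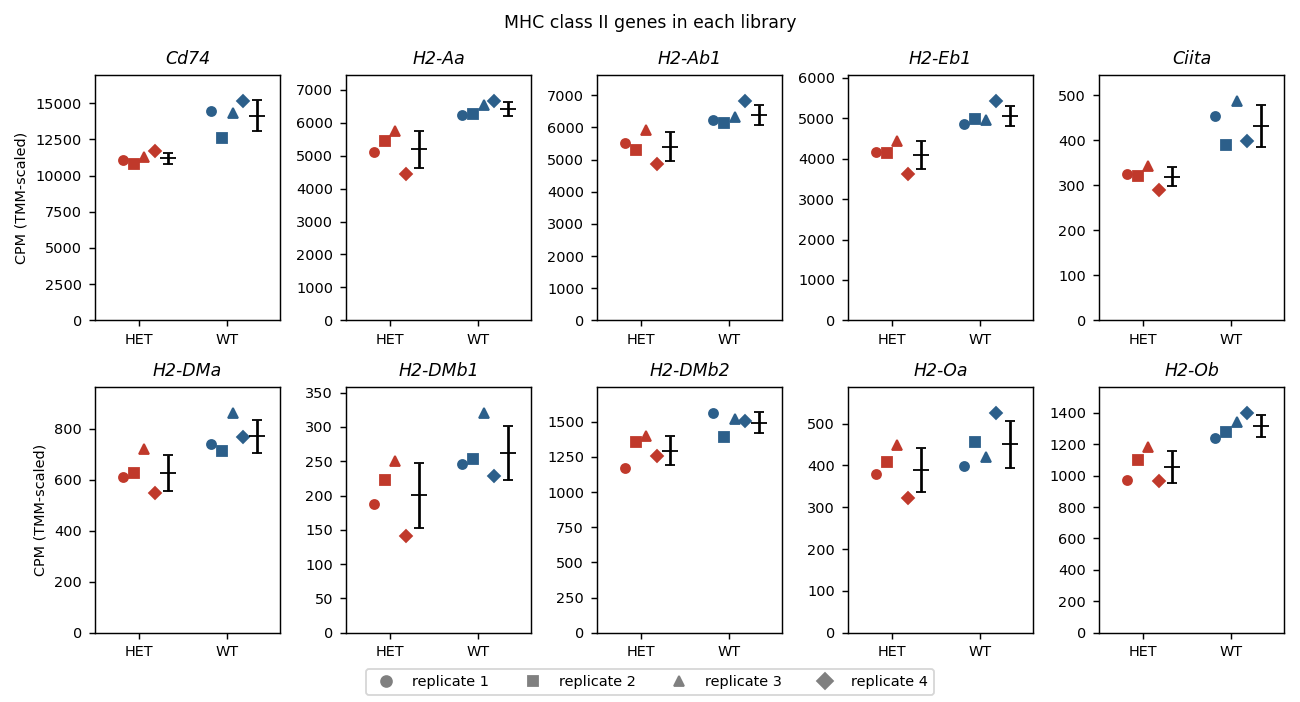
CPM (TMM-scaled, axes from 0) of each gene in the 4 HET (red) and 4 WT (blue) libraries, with the shape giving the replicate number and the black mark the mean ± SD. For Cd74, H2-Aa, H2-Ab1, H2-Eb1, Ciita and H2-Ob all HET points lie below all WT points, and HET replicate 4 is the lowest HET point for 8 of the 10 genes.

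The genes of the classical chains, H2-Aa, H2-Ab1 and H2-Eb1, were all lower in HET without overlap. H2-Aa, the alpha chain of I-A, was at 5123, 5428, 5752 and 4447 CPM in HET replicates 1 to 4 and at 6226, 6249.7, 6548 and 6659 CPM in WT replicates 1 to 4. The WT libraries lay close together and HET replicate 4 was the lowest of all. Its means were 5188 ± 557 in HET against 6421 ± 216 CPM in WT (SD, n = 4 each), a log2 fold change of -0.31 (SE 0.069, edgeR adjusted p = 0.233).

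H2-Ab1, its beta chain partner, was at 5516, 5299.8, 5931 and 4859 CPM in HET and at 6229, 6128, 6316 and 6828 CPM in WT. HET replicate 3, the highest, lay just below WT replicate 2, the lowest of WT, and the log2 fold change was -0.24 (SE 0.062, edgeR adjusted p = 0.328). H2-Eb1, the beta chain of I-E, was at 4172, 4134, 4429 and 3615 CPM in HET and at 4864, 4984, 4949 and 5427 CPM in WT. The gap between the groups was wider than for H2-Ab1, with a log2 fold change of -0.31 (SE 0.064, edgeR adjusted p = 0.217). Gm20513 is annotated antisense to H2-Eb1, and unstranded reads of the pair cannot be told apart.

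Cd74, which encodes the invariant chain, had the lowest p of the 10 genes. It was at 11065, 10785, 11258 and 11680.0 CPM in HET and at 14479.6, 12618, 14301 and 15157 CPM in WT. The HET libraries lay close together, WT replicate 2 was the lowest WT library, and the groups did not overlap. The means were 11197 ± 376 in HET against 14139 ± 1079 CPM in WT (SD, n = 4 each), a log2 fold change of -0.34 (SE 0.054, edgeR adjusted p = 0.0770). Cd74 was the only one of the 10 called in any fit that left out a library, and only without WT replicate 2 (edgeR adjusted p = 0.00800). HET replicate 4, the lowest HET library for the classical chains, was the highest for Cd74.

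Ciita, which encodes the transactivator, had the lowest ratio of HET to WT. It was at 324, 321, 342 and 290.3 CPM in HET and at 454, 389.8, 487 and 397 CPM in WT. WT replicates 2 and 4 were near each other and closest to the HET libraries, and WT replicates 1 and 3 were higher. The log2 fold change was -0.44 (SE 0.097, edgeR adjusted p = 0.233, DESeq2 adjusted p = 0.00802). The gene overlaps Dexi on the other strand in the annotation, and the strand setting of the counting is not given in the sources used here.

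The H2-DM genes, which encode the peptide exchange factor, were lower in HET on average but overlapped between groups. H2-DMa was at 611, 625, 721 and 549 CPM in HET and at 738, 713, 861 and 766 CPM in WT, so that only HET replicate 3 and WT replicate 2 crossed. Its log2 fold change was -0.30 (SE 0.093, edgeR adjusted p = 0.506). Brd2, on the other strand, and 3 noncoding genes overlap H2-DMa in the annotation, so some of its reads could be theirs. H2-DMb1, the scarcer of the beta chain genes, was at 188, 223, 250.05 and 140.3 CPM in HET and at 246, 253, 320.2 and 229 CPM in WT. It had the widest spread of the 10 genes relative to its level, with a log2 fold change of -0.39 and an SE of 0.16, and the change was -0.25 without HET replicate 4.

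H2-DMb2 was at 1168, 1354, 1398 and 1257 CPM in HET and at 1561, 1393, 1522 and 1502 CPM in WT. Only HET replicate 3 reached above a WT library, replicate 2, and the log2 fold change was -0.21 (SE 0.072, edgeR adjusted p = 0.571). The transcripts H2-DMb1-201 and H2-DMb2-201 match at 75.3% of aligned positions and share an identical run of 221 bases, so reads could be split between the genes. Summed, they gave 1494 ± 140 CPM in HET against 1757 ± 86.6 CPM in WT (SD, n = 4 each), which overlapped by 1 library on each side.

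The H2-DO genes, which encode the brake on H2-DM, differed in how far apart the groups lay. H2-Ob was at 974, 1097, 1182 and 965 CPM in HET and at 1241, 1278, 1341 and 1398 CPM in WT, without overlap. Its log2 fold change was -0.32 (SE 0.079, edgeR adjusted p = 0.280, DESeq2 adjusted p = 0.0412). H2-Oa was at 378, 409, 448 and 322 CPM in HET and at 397, 457, 421 and 525 CPM in WT. Its groups overlapped in several libraries, and the log2 fold change was -0.21 (SE 0.11, edgeR adjusted p = 0.740), the weakest of the 10 by p. It was -0.13 without HET replicate 4 and likewise -0.13 without WT replicate 4. The difference between H2-Ob and H2-Oa was not tested.

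Ratios between partners showed whether the balance within the pathway differed, on the TPM scale. The ratio of H2-Oa plus H2-Ob to the H2-DM genes was 1.097 ± 0.0258 in HET against 1.11 ± 0.118 in WT (SD, n = 4 each), and that of H2-Aa to H2-Ab1 was 0.914 ± 0.0467 in HET against 0.960 ± 0.0253 in WT (SD, n = 4 each). Cd74 per H2-Aa plus H2-Ab1 was 0.633 ± 0.0769 in HET against 0.657 ± 0.0360 in WT (SD, n = 4 each), with HET replicate 4 highest of all at 0.745. Ciita relative to H2-Aa plus H2-Ab1, in TPM per 1000 TPM, was 4.42 ± 0.115 in HET against 4.95 ± 0.586 in WT (SD, n = 4 each). In all these ratios the groups overlapped. Of the 8 ratios examined, only H2-Eb1 to H2-Ab1 did not overlap, at 0.365 ± 0.00789 in HET against 0.382 ± 0.00711 in WT (SD, n = 4 each), where the highest HET library (0.3757) and the lowest WT library (0.3761) almost met.

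Across the 8 libraries, log2 CPM of the 10 genes varied together, with a median Pearson correlation of 0.832 over 45 pairs (0.471 to 0.983), which includes the difference between groups. After subtraction of each group's mean the median was 0.558 (-0.30 to 0.958). The libraries of a group come from 1 pool, and depth and sorting are shared by all genes of a library, so these values are a description. H2-Aa, H2-Ab1 and H2-Eb1 stayed close to each other (0.870, 0.912 and 0.958), and H2-Oa went with H2-Eb1 (0.939). H2-DMa and H2-DMb1 formed another close pair (0.890), and Ciita was nearest to H2-DMa (0.784). Cd74 was at -0.08 with H2-Aa, 0.21 with H2-Ab1 and -0.0015 with H2-Eb1. HET replicate 4 weighs on these values, being the highest HET library for Cd74 and the lowest for H2-Aa, H2-Ab1 and H2-Eb1. Correlations without that library were not computed.

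**Figure D3:**
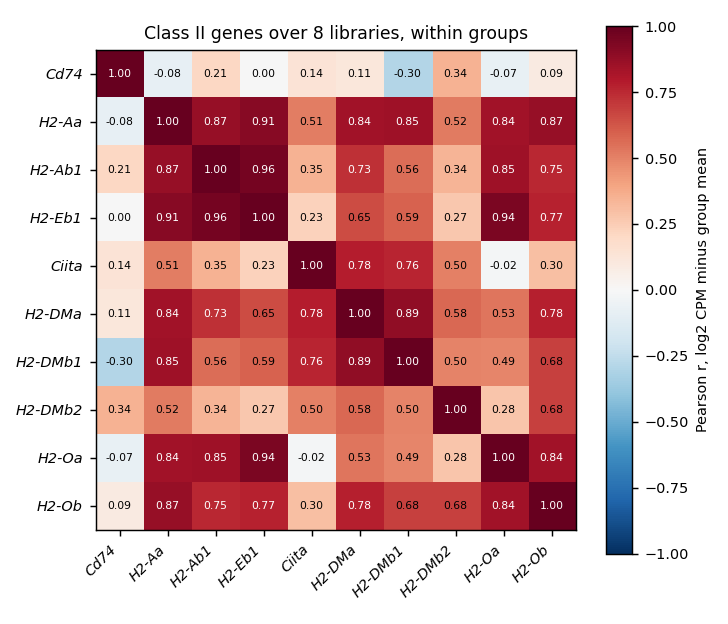
Pearson correlation between the 10 genes over 8 libraries, computed on log2 CPM after subtraction of the group mean, with red for positive and blue for negative values. The block of H2-Aa, H2-Ab1 and H2-Eb1 is at 0.870 or more, and the Cd74 row runs from -0.30 to 0.34.

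Of 7077 other genes averaging 4 or more in log2 CPM, those whose log2 CPM over the 8 libraries was most like the mean of the 10 were Fam43a (r = 0.978), Lin52 (0.960), Pgs1 (0.956), BC051537 (0.955) and Ighd (0.955). Ighd encodes the heavy chain constant region of IgD, which B cells lose as they leave the resting state and which was low by protein in the sort. It was at 1583 ± 207 CPM in HET against 1910 ± 107 CPM in WT (SD, n = 4 each) and overlapped. The other genes named as most alike were lower in HET without overlap. Group means were not removed, so these correlations include the difference between groups. BC051537 is annotated antisense to H2-Oa and overlaps it, and without strand its reads cannot be told apart from those of H2-Oa. The most opposite were Mrpl15 (-0.98), a mitochondrial ribosomal protein gene, Prdx1 (-0.95), which encodes a peroxide-removing enzyme, and Tbc1d10b (-0.95). Prdx1 was at 500.5 ± 38.8 CPM in HET against 419 ± 24.0 CPM in WT (SD, n = 4 each). Mrpl15, Prdx1 and Tbc1d10b were all higher in HET without overlap.

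B cell markers were lower in HET as well. All 6 had a lower mean, 4 of them (Cd79b, Ms4a1, Cd22 and Ptprc) without overlap, with a median log2 fold change of -0.22. None was called by edgeR, and DESeq2 called Cd22 (log2 fold change -0.37, DESeq2 adjusted p = 0.00860). Over all genes tested, 2.62% had every HET library below every WT library. DESeq2 called 0.656% of the genes to which it gave an adjusted p. The sum of the 6 markers was 9393 ± 398 CPM in HET against 10818 ± 343 CPM in WT (SD, n = 4 each). That is a ratio of 0.868, beside 0.811 for the 10 class II genes. Per B cell marker count, class II RNA was 3.17 ± 0.0345 in HET against 3.396 ± 0.195 in WT (SD, n = 4 each), or 3.13 to 3.22 against 3.28 to 3.69, without overlap. For single genes this ratio kept the groups apart only for Ciita, at 0.0327 to 0.0347 per marker count in HET and 0.0372 to 0.0438 in WT. When libraries were scaled to the 6 markers, which shifted the median of all genes to 0.20, the 10 genes had log2 fold changes from -0.23 (Ciita) to -0.0038 (H2-DMb2) with a median of -0.11, and edgeR called none. The part that B cell content had in the difference was not tested.

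**Figure D4:**
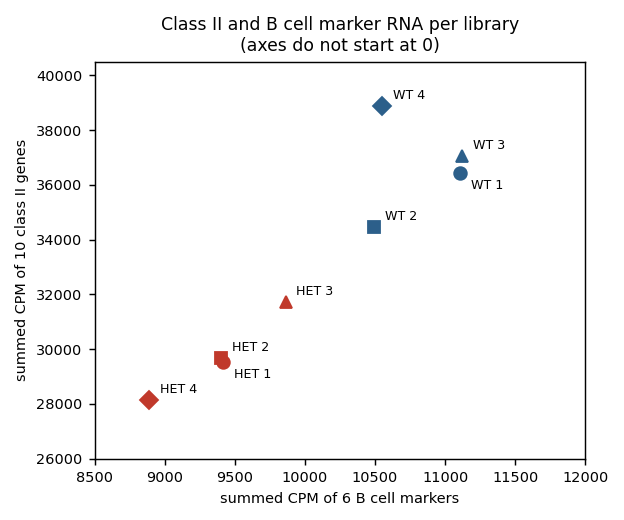
Summed CPM of the 10 class II genes against that of 6 B cell markers in each library (HET red, WT blue, axes not from 0). HET libraries lie below WT libraries on both axes, and WT replicate 4 has the most class II RNA per marker, at 3.69.

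Markers of other cells did not share 1 direction. All 11 T cell genes tested were higher in HET on average with overlapping sums, and all 4 macrophage, monocyte or neutrophil genes tested were lower, with the highest sum in WT replicate 2. Of the dendritic cell genes, 3 were higher and 3 lower, and Flt3 was higher without overlap, at 20.4 CPM in HET and 7.94 in WT (edgeR adjusted p = 0.280, DESeq2 adjusted p = 0.0255). Of the antibody-secreting cell genes tested, 5 were higher and 2 lower, all with overlap. Without HET replicate 1 and WT replicate 2, the libraries that stand out for antibody-secreting and myeloid genes, the 10 genes were again all lower (median log2 fold change -0.32). The log2 fold changes then ran from -0.49 (Ciita) to -0.19 (H2-Oa and H2-DMb2), with Cd74 at -0.38 (edgeR adjusted p = 0.0648) and H2-Ob at -0.30.

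The rest of the pathway was read from lists of genes with known roles. The factors that hold CIITA on the promoter (Rfx5, Rfxap, Rfxank, Nfya, Nfyb, Nfyc and Creb1) were all tested and none passed edgeR's test, 5 being lower and 2 higher (median log2 fold change -0.12). The most abundant were Rfxank, at 68.5 CPM in HET and 74.6 in WT, and Nfyc, at 69.3 and 70.2. Of the 4 genes known to regulate Ciita in B cells, none passed. Spi1, which encodes the activator PU.1, was at 196 ± 10.5 in HET against 223 ± 27.0 CPM in WT (SD, n = 4 each). Tcf3 was at 185 ± 36.5 in HET against 190 ± 33.9 CPM in WT (SD, n = 4 each). Irf4 was higher in HET, at 83.8 ± 25.0 against 74.9 ± 22.9 CPM in WT (SD, n = 4 each). Prdm1, the repressor of Ciita in plasma cells, was at 3.46 ± 4.56 in HET against 4.09 ± 4.64 CPM in WT (SD, n = 4 each). It had 1 to 127 counts per library.

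Among genes for surface turnover and for processing, a few stood with the class II genes. Cd83, whose product keeps class II on the surface by opposing the ubiquitin ligase MARCH1, was at 650.3 ± 122 CPM in HET against 921 ± 107 CPM in WT (SD, n = 4 each) without overlap. Its log2 fold change of -0.50 was called by DESeq2 (adjusted p = 0.0220) and not by edgeR (adjusted p = 0.299). Marchf1, the ligase gene, was at 135 and 146 CPM (log2 fold change -0.12, edgeR adjusted p = 0.864). Marchf8 was too low to be tested.

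Of the 6 endosomal processing genes, 4 were lower, 2 higher and none called by edgeR. The largest change was upward, in Ctsl, at 13.2 ± 8.55 in HET against 6.73 ± 3.39 CPM in WT (SD, n = 4 each). Its log2 fold change was 0.97 (edgeR adjusted p = 0.732). Ctsb was also higher in HET (log2 fold change 0.16), and Lgmn (-0.11) and Sppl2a (-0.15) were lower. All of these overlapped between groups. Ifi30, the thiol reductase GILT that opens disulfide bonds of antigens, was at 625 ± 74.3 CPM in HET against 841 ± 52.4 CPM in WT (SD, n = 4 each) without overlap, a log2 fold change of -0.43 (edgeR adjusted p = 0.217, DESeq2 adjusted p = 0.00585). Ctss, the protease that trims the invariant chain, was at 565 ± 34.1 in HET against 648 ± 35.1 CPM in WT (SD, n = 4 each), also without overlap (log2 fold change -0.20, edgeR adjusted p = 0.612). H2-Eb2, the other class II beta chain gene tested, was at 40.3 ± 10.96 in HET against 51.2 ± 14.5 CPM in WT (SD, n = 4 each) and overlapped.

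**Figure D5:**
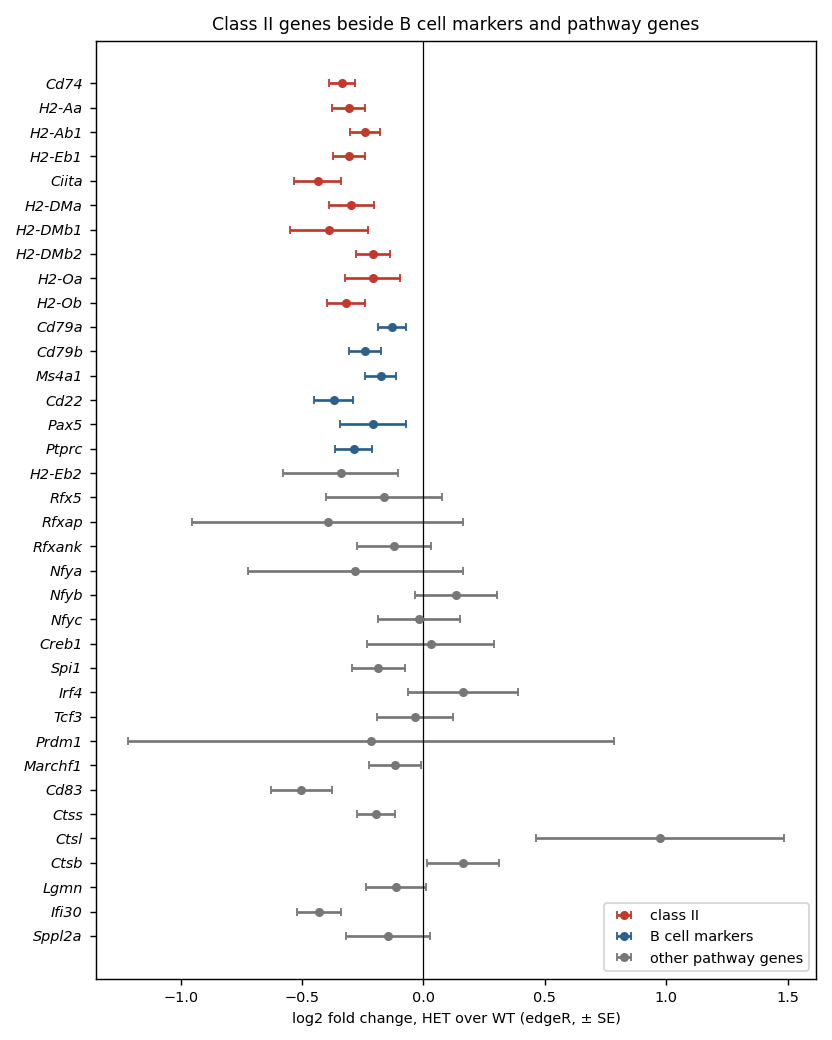
Log2 fold change of HET over WT (edgeR, all genes fitted together, bars ± SE) for the 10 class II genes (red), 6 B cell markers (blue) and the other pathway genes tested (grey). All red and blue points lie below 0, the red ones between -0.44 and -0.21, and the grey points lie on both sides.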

How the data were processed

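RNA was measured in 4 HET and 4 WT libraries. The authors prepared them with an adapted SMART-Seq2 protocol, which marks neither strand nor molecule, aligned reads to GRCm38 (mm10 per the labels) with HISAT2 2.2.1 and counted them with HTSeq-count. The annotation release and strand setting are not given in the sources used here. The count table as deposited lists whole reads per gene for 24259 symbols. The deposited TPM table (24232 symbols) follows from these counts with 1 gene length for all libraries. Columns were matched to libraries by name. Repeats differed beyond counting error (chi-square 12.6 to 29.1 per degree of freedom), so none was a duplicate.

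HET and WT counts were compared with edgeR 4.0.16 in R 4.3.3 (filterByExpr, TMM, robust quasi-likelihood fit, group as the only factor, Benjamini-Hochberg adjustment over 12744 genes, threshold 0.05). Those genes held 99.7% of counts. DESeq2 1.42.0 and limma 3.58.1 on log2(TPM + 1) and log2(TPM + 0.1) were alternatives. Levels between genes were compared on TPM, between groups on CPM. The SE is the log2 fold change over the square root of F. The 10 genes, the pathway and marker lists and the rule for named genes were chosen with earlier results of these data known. The rule named all 10, and the 5 most alike and 3 most opposite patterns. From each pathway list it took the genes past the threshold in edgeR or DESeq2, or otherwise the most abundant. Further genes of these lists are given beyond the rule. Another gene of the B cell marker list is not reported here and entered no sum. Positions came from GENCODE M21 and promoter sequences from RefSeq (GRCm38.p6).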

Additional observations from a re-analysis of the deposited data

Results flagged for a closer look

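The sum of the 10 class II genes over the sum of the 6 B cell markers was 3.69 in WT replicate 4 and 3.28 to 3.33 in the other WT libraries. It was singled out because its gap to the nearest of the other WT libraries took 0.870 of the range of the 4, above Dixon's 95% critical value. It was 1 of 40 groups of 4 libraries examined, and chance singles out about 1 in 20. With that library left out, WT still lay above HET (3.13 to 3.22).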

How the results depend on the processing

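Each of the 10 class II genes stayed lower in HET in every setting it was fitted in. Their median log2 fold change kept its size except after scaling to the B cell markers (-0.11), an alternative chosen after seeing the data, as was leaving out HET replicate 1 and WT replicate 2 together. Leaving out 1 library moved H2-Oa (to -0.13 when replicate 4 of either group was dropped) and H2-DMb1 (to -0.25, without HET replicate 4) by over 1.5 times, and no other of the 10. The count of called genes depended on the tool and filter. Of all genes, 3 were called in edgeR, 77 by DESeq2, 38 with no filter on low counts, 7 with a mean of at least 50 counts, 0 by limma on log2(TPM + 1), 1 on log2(TPM + 0.1), 7 after scaling to the markers, and 1 to 6 with 1 library left out. Of the 10 genes, 0 were called in edgeR, 5 by DESeq2, 3 with no filter, 1 with a mean of at least 50 counts, and 0 to 1 with 1 library left out. The 3 called with no filter and the 5 by DESeq2 include Cd74. RLE size factors, leaving out 291 immunoglobulin and ribosomal RNA genes, and summing the H2-DMb pair called none of the 10. The cause of these changes was not tested.

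The replicate numbers did not pair the libraries, since libraries of the same number did not deviate together (correlations -0.05, 0.0080, 0.0032 and -0.03), and 1 of the 4 HET libraries correlated best with its own number. With a replicate block, edgeR called 0 genes of all and 0 of the 10, which were all lower. Depth set a floor of 0.241 to 0.455 CPM, far below the level of each of the 10 genes.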
